A study of Mus musculus with 8 samples.

Results

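The liver carboxylesterases examined here are 10 genes of the mouse Ces family: Ces1c, Ces1d, Ces1e, Ces1f, Ces1g, Ces2a, Ces2c, Ces2e, Ces3a and Ces3b. They were taken by gene symbol, and all 10 were found among the 16640 genes of the authors' deposited table. The study measured whole-liver RNA by bulk sequencing in mice aged 1 year that had been fed standard chow freely. The 4 WT livers came from mice with Huwe1 intact. The 4 Huwe1_LKO livers carried a liver-specific knockout of Huwe1, a ubiquitin ligase of the HECT class that tags proteins for breakdown. The labels give no sex, litter, Cre driver or sequencing batch for either group. The title of the series names fatty liver disease and lipid metabolism as its subject, and the comparison asks which liver mRNAs differ when Huwe1 is lost.

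Carboxylesterases are serine hydrolases that cut ester bonds in drugs, prodrugs, plant and environmental esters, and in neutral lipids. In hepatocytes most of them sit in the lumen of the endoplasmic reticulum, held there by a retrieval signal at the end of the protein, and some release fatty acids from stored triglyceride for the assembly of very low density lipoprotein (VLDL). The mouse family arose by repeated gene duplication, so members of a subfamily lie side by side on the chromosome and are close in sequence.

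The deposited table gives each gene 1 normalized expression value for each group, with the log2 ratio of Huwe1_LKO to WT and its p-values. Single livers were not analysed here, so each level below is the authors' value for a group of 4 livers, without its own error, and whether the groups overlap liver by liver is not known from it. The error given is a standard error (SE) of the log2 fold change, worked out from the deposited p. The group values summed to 17347886 in WT and 17533080 in Huwe1_LKO. Huwe1 itself stood at 2666 in WT and 1784 in Huwe1_LKO by the authors' deposited table, a log2 fold change of -0.58 (SE 0.13, adjusted p = 0.000425), which is 66.9% of the WT value. In whole tissue, fewer cells of a type and less RNA per cell cannot be told apart, here and in every comparison that follows.

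At an adjusted p under 0.05, 6 of the 10 carboxylesterases were lower in Huwe1_LKO livers, 1 was higher and 3 were not called. Lower were Ces1e, Ces1g, Ces2a, Ces2c, Ces2e and Ces3b, at 33.9% to 60.7% of their WT values. Ces1c, the plasma carboxylesterase, was the 1 member that rose, to 144% of its WT value. Of all genes of the authors' deposited table, 5.56% were called lower and 4.41% higher. All members are abundant, with a mean of both groups of 1120 or more, and among the 2196 genes with a mean of at least 1000 the shares were 15.5% lower and 6.01% higher. With a Bonferroni correction over all genes, 2 members, Ces1e and Ces2e, passed as lower and 0 as higher. Members with a log2 fold change below 0 numbered 9 of 10. Their median log2 fold change was -0.72, beside -0.08 for the 2196 abundant genes and 0.01 for the 12309 genes with a mean of 10 or more. Implied standard errors of the members ran from 0.13 to 0.28 with a median of 0.20, wider than the median of 0.13 among the abundant genes.

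Levels between members can be compared only per length, so each normalized value was divided by the gene length in the table. Per kilobase, Ces1c and Ces3a were far above the rest in WT livers, at 19444 and 18204 from the authors' deposited table, which placed them 67th and 71st among all genes. Ces1d at 4658, Ces1f at 4188, Ces3b at 3516 and Ces2a at 2892 per kilobase followed in that table. Ces1e, Ces2e and Ces1g lay close together per kilobase of the authors' deposited table, at 2408, 2272 and 1964. The lowest member was Ces2c, at 765 per kilobase. Because the table gives no spread for a single group's level, neighbours in this order could not be tested against each other.

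In Huwe1_LKO livers Ces1c and Ces3a still led, at 27942 and 16277 per kilobase of the authors' deposited table, ranks 48 and 76 among all genes. Ces1c, slightly above Ces3a in WT, was thus well above it in Huwe1_LKO. Ces1f at 3490 stood above Ces1d at 3230 per kilobase of the authors' deposited table, the reverse of their WT order, though neither gene passed the test. Ces1e moved from the seventh place to the ninth, and its rank among all genes went from 574 to 1242 by level per kilobase in that table. The plot of levels per kilobase shows the 2 most abundant members on the right and Ces2c alone at the lower end.

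**Figure D1:**
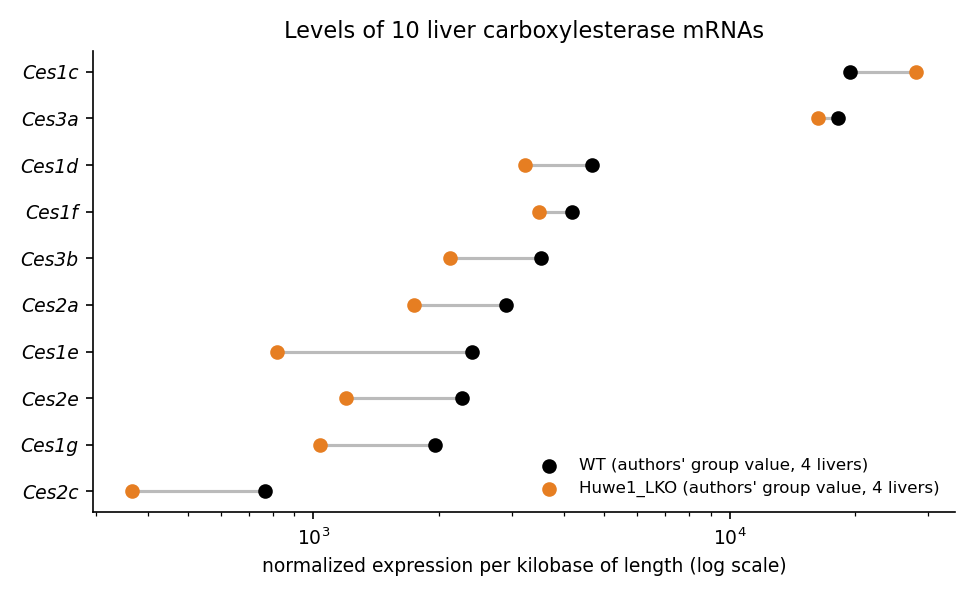
Levels of the 10 carboxylesterase mRNAs in whole liver, as the authors' group value per kilobase of gene length on a log scale, with WT in black and Huwe1_LKO in orange (4 livers behind each point, no error per group). The orange point lies to the left of the black point in 9 genes and to the right only in Ces1c, and the widest gap is that of Ces1e, from 2408 to 815.

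The Ces1 members lie on the minus strand of chromosome 8, within a run of genes from Ces1a to Ces1g that spans 93020214 to 93337209 in GRCm38, 317 kb in all. Ces1c has 13 exons there, and Ces1d, Ces1e, Ces1f and Ces1g have 14 each. Ces1c (Entrez ID 13884, chromosome 8, 93099015 to 93131283) encodes an esterase that mouse liver secretes into plasma. Its value was 35972 in WT and 51692 in Huwe1_LKO by the authors' deposited table. The log2 fold change was 0.52 (SE 0.15, 95% interval 0.23 to 0.81), with an adjusted p of 0.0071 by the authors' DESeq2 run. The interval is that of the fold change and does not show how single livers spread.

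Ces1e and Ces1g fell. Ces1e (Entrez ID 13897, chromosome 8, 93201218 to 93229631) encodes egasyn, which binds β-glucuronidase in the endoplasmic reticulum. It went from 4993 to 1690 by the authors' deposited table, a log2 fold change of -1.56 (SE 0.25, 95% interval -2.05 to -1.08, adjusted p = 2.92e-08), the largest change of any member. Gusb, the gene of β-glucuronidase itself, was at 353 in WT and 302 in Huwe1_LKO by the authors' deposited table, without passing the test (log2 fold change -0.22, adjusted p = 0.599). Ces1g (Entrez ID 12623, chromosome 8, 93302369 to 93337209) encodes a lipid-hydrolysing esterase whose loss has been linked to fat accumulation in mouse liver. Its value was 4495 in WT and 2371 in Huwe1_LKO by the authors' deposited table, a log2 fold change of -0.92 (SE 0.20, 95% interval -1.32 to -0.53, adjusted p = 0.000174).

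Ces1d and Ces1f were below their WT values by amounts that the test did not separate from no change. Ces1d (Entrez ID 104158, chromosome 8, 93166072 to 93197804) encodes triacylglycerol hydrolase, the enzyme best known for supplying lipid to VLDL. Its values were 9157 in WT and 6351 in Huwe1_LKO by the authors' deposited table (log2 fold change -0.53, SE 0.28, 95% interval -1.08 to 0.02, adjusted p = 0.272). The SE of Ces1d was the widest of all members, and its interval reaches from 0.474 to 1.02 times the WT level. Ces1f (Entrez ID 234564, chromosome 8, 93256236 to 93279766), which RefSeq also lists under a triacylglycerol hydrolase synonym, stood at 8062 in WT and 6719 in Huwe1_LKO by the authors' deposited table (log2 fold change -0.26, SE 0.21, 95% interval -0.67 to 0.14, adjusted p = 0.562).

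The bases upstream of 4 Ces1 genes are shown because neighbours in this cluster moved in opposite directions: Ces1c rose, as did Ces1b, a family gene outside the 10 whose values are given with the other family genes below, while Ces1e and Ces1g fell. Each run is the 250 bases before a start site in RefSeq's GRCm38.p6 entry, written 5′ to 3′ on the gene's own strand, the minus strand, and capitals mark exact blocks of at least 11 bases found in another of the 4. The windows are chr8:93080018-93080267 for Ces1b, chr8:93131284-93131533 for Ces1c, chr8:93229620-93229869 for Ces1e and chr8:93337210-93337459 for Ces1g.
Ces1b: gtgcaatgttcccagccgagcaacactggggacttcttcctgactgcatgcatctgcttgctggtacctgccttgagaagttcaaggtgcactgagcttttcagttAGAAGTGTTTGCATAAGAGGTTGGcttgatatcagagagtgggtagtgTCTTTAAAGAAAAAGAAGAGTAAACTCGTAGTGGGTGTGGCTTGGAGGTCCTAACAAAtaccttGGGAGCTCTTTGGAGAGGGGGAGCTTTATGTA
Ces1c: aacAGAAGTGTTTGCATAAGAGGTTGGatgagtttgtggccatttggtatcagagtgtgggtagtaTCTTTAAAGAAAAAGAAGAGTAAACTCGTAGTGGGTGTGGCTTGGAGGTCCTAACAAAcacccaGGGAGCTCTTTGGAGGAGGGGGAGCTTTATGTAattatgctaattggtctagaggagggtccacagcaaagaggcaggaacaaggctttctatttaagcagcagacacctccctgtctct
Ces1e: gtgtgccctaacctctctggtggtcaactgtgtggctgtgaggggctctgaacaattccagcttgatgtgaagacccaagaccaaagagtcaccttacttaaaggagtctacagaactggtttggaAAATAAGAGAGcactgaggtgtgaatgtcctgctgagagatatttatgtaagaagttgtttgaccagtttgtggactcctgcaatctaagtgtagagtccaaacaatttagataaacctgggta
Ces1g: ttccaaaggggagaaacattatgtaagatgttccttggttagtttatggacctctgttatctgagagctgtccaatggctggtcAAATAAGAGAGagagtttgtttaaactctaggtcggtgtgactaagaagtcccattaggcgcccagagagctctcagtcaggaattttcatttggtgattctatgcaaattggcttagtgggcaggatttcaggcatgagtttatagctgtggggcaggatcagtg
Ces1b and Ces1c could be aligned over 144 bases, of which 137 were identical (95.1%), and 114 and 115 of their bases are in capitals. Their longest identical run covers 58 bases and starts 96 bases before the Ces1b start and 184 bases before the Ces1c start. The listed start of Ces1e, 93229619, lies just inside the outer end of its gene. RefSeq gives Ces1b 2 start sites 77 bases apart, and the outer was used here. The run occurs in 3 of 32851 mouse promoter entries, which are the 2 entries of Ces1b and the entry of Ces1c. Ces1e and Ces1g share only 1 exact block of 11 bases with each other and none with Ces1b or Ces1c. With mismatches and gaps allowed, Ces1c and Ces1g could be aligned over 169 bases (65.1% identical). Ces1c and Ces1e aligned over 55 bases (69.1%), and Ces1e and Ces1g also over 55 (74.5%). Ces1a, a family gene that was not called, aligned with Ces1b over 172 bases (69.8%). At 2.26 in WT and 4.04 in Huwe1_LKO, Ces1a was too low for a firm fold (log2 fold change 0.84, SE 0.55). Ces1d and Ces1f had no entry.

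The Ces2 and Ces3 members lie on the plus strand of chromosome 8 in a second cluster, from Ces2a to Ces4a, that spans 104734003 to 105150109 in GRCm38, 416 kb. All 3 Ces2 members fell, and each has 12 exons. The Ces2 subfamily is the counterpart of human CES2, which favours esters with a small acyl group, as in many prodrugs. Ces2a (Entrez ID 102022, chromosome 8, 104734003 to 104741634) was at 5678 in WT and 3428 in Huwe1_LKO by the authors' deposited table, a log2 fold change of -0.73 (SE 0.19, 95% interval -1.10 to -0.35, adjusted p = 0.00339). Ces2c (Entrez ID 234671, chromosome 8, 104847068 to 104854483) encodes an enzyme also described as an acylcarnitine hydrolase. It went from 1513 to 726 by the authors' deposited table, a log2 fold change of -1.06 (SE 0.27, 95% interval -1.58 to -0.53, adjusted p = 0.00198). Ces2e (Entrez ID 234673, chromosome 8, 104926260 to 104934672) went from 4658 to 2457 by the authors' deposited table, with the smallest adjusted p of all members (log2 fold change -0.92, SE 0.14, 95% interval -1.21 to -0.64, adjusted p = 2.36e-08). The 3 intervals overlap each other, and whether the 3 falls differ in size was not tested.

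The bases upstream of the 3 Ces2 members are shown because all 3 fell together. Each run is the 250 bases before the start in RefSeq's GRCm38.p6 entry, 5′ to 3′ on the plus strand, and capitals mark exact blocks of at least 11 bases found in another of the 3. The windows are chr8:104733753-104734002 for Ces2a, chr8:104846818-104847067 for Ces2c and chr8:104926010-104926259 for Ces2e.
Ces2a: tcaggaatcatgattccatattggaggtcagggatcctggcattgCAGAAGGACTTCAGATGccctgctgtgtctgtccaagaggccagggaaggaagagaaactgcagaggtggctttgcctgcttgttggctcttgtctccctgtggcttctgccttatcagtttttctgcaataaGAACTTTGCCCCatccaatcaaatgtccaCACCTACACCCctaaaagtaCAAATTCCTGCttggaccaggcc
Ces2c: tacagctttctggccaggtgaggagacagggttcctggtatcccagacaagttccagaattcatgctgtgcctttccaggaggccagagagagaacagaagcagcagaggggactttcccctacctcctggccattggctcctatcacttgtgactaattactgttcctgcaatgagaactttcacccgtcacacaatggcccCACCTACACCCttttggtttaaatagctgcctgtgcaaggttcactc
Ces2e: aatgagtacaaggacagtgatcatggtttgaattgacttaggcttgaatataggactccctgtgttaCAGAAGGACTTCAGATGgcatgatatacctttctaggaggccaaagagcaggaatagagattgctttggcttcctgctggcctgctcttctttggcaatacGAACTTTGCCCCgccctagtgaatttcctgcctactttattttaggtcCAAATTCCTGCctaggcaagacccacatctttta
Ces2a and Ces2c could be aligned over 216 bases with 152 identical (70.4%), Ces2a and Ces2e over 103 (73.8%), and Ces2c and Ces2e over only 64 (67.2%). Of the family genes not shown, Ces2g, which fell, aligned with Ces2c over 118 bases (78.8%). Ces2f, which was not called, aligned with Ces2a over 183 bases (76.0%) and with Ces2c over 189 (74.6%). Ces2f was listed at 0.131 in WT and 0.121 in Huwe1_LKO, too low for a fall to be seen. Whether such likeness goes with the falls was not tested. Ces2a and Ces2e share the 17 bases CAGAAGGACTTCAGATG, a string held by 2 of 32851 promoter entries on either strand, which are these 2. A shorter string, AACTTTGCCCC, begins 71 bases before the start of Ces2a and 81 before that of Ces2e, and is also found 93 bases before the start of Ces2f, a family gene listed near 0 in these livers. It occurs in 6 of 32851 entries.

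A search of both strands of these windows for CAAAGTTC, a variant of the core bound by the liver factor HNF4, found it in Ces2a and Ces2e, on the minus strand 72 and 82 bases before the start, where it overlaps the shared string. It is in 0.898% of all promoter entries. The related core CAAAGTCC was in 0 of the 15 Ces genes with an entry and in 1.20% of all entries. AGGTCA, a core of many nuclear receptor sites, was in Ces2a, Ces2h and Ces4a and in 14.0% of all entries, and GTTAAT, part of the HNF1 site, was in Ces3b and Ces5a and in 6.43% of all entries. Of the 10 members, 7 had an entry, and Ces3a had none. These matches describe letters in the windows and no binding was measured.

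Ces3a and Ces3b, esterases with 13 exons each, did not share a call. The deposited annotation lists both under the lumen of the endoplasmic reticulum and under an extracellular location, as it does Ces1c. Ces3b (Entrez ID 13909, chromosome 8, 105083733 to 105093929) fell from 7161 to 4345 by the authors' deposited table, a log2 fold change of -0.72 (SE 0.24, 95% interval -1.19 to -0.26, adjusted p = 0.0288). This was the weakest of the 6 calls of a fall. It was lost when fold changes were centred on the most abundant eighth of genes, which gave -0.64, and when the trend with gene length and level was removed, which gave -0.60. Ces3a (Entrez ID 382053, chromosome 8, 105048576 to 105061928) stood at 37100 in WT and 33173 in Huwe1_LKO by the authors' deposited table and was not called (log2 fold change -0.16, SE 0.13, 95% interval -0.41 to 0.09, adjusted p = 0.557). Its interval runs from 0.753 to 1.06 times the WT level. Whether the changes of the 2 genes differ was not tested.

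**Figure D2:**
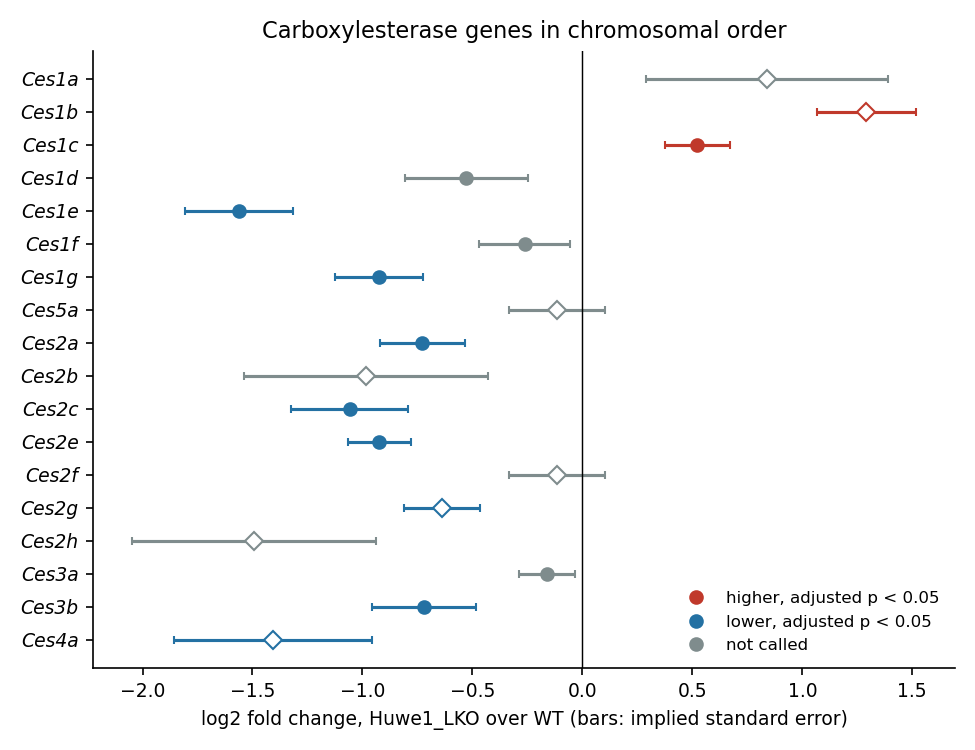
Log2 fold change of Huwe1_LKO over WT for the 18 carboxylesterase genes of the authors' deposited table, in chromosomal order from top to bottom, with bars of 1 implied standard error. Filled circles are the 10 members and open diamonds the 8 other family genes. Ces1b and Ces1c are the 2 genes called higher, next to each other at the top, and the 8 genes called lower lie between -0.64 (Ces2g) and -1.56 (Ces1e).

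The summed value of the members differed less between the groups than the values of most members, since the 2 most abundant genes make up most of the sum. The 10 values summed to 118788 in WT and 112952 in Huwe1_LKO from the authors' deposited table, a log2 ratio of -0.07, or 0.685% and 0.644% of all normalized expression. Without Ces1c the other 9 summed to 82817 and 61260, a log2 ratio of -0.43. The 6 genes called lower summed to 28498 in WT and 15018 in Huwe1_LKO from that table, a log2 ratio of -0.92. No test was made on these sums.

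By subfamily, the 5 Ces1 members summed to 62679 in WT and 68822 in Huwe1_LKO from the authors' deposited table, a log2 ratio of 0.13. That direction rests on Ces1c, and the other 4 summed to 26707 and 17130, a log2 ratio of -0.64. The 3 Ces2 members summed to 11849 and 6612 from the authors' deposited table, a log2 ratio of -0.84, with no single gene setting the direction. Ces3a and Ces3b summed to 44261 and 37518 from that table, a log2 ratio of -0.24, in which Ces3a holds most of the value. Ces1c made up 30.3% of the members' summed value in WT and 45.8% in Huwe1_LKO, and Ces3a made up 31.2% and 29.4%. The share of Ces1g went from 3.78% to 2.10%, and that of Ces2c from 1.27% to 0.643%.

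Close paralogs can exchange reads, and the sources used here do not say how the authors assigned reads that match several genes. To show how much of each transcript is open to this, every 50-base window of the longest coding transcript of each gene (GENCODE M21, GRCm38) was looked up in the transcripts of the rest of the family. Ces3a and Ces3b, 95.4% identical over 2046 aligned bases, had the most in common among the members: 30.9% of the Ces3a windows and 26.1% of the Ces3b windows were in the other gene, and 9.09% and 7.68% at a window of 100 bases. The value of Ces3b was 19.3% of that of Ces3a in WT and 13.1% in Huwe1_LKO by the authors' deposited table, so a small share of misplaced Ces3a reads would weigh more on Ces3b than the reverse. Their separate values are therefore less certain than their sum.

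Ces2c shared 40.2% of its windows with other Ces transcripts, most of them (38.2%) with the pseudogene Ces2d-ps and 5.15% with Ces2b. It also shared 18.9% with the gene model Gm8798. Neither Ces2d-ps nor Gm8798 has a row in the table, and Ces2b was at 6.22 and 3.14 by the authors' deposited table, which is 0.411% of Ces2c in WT and 0.433% in Huwe1_LKO. How far reads of the pseudogene enter the value of Ces2c was not tested. Ces2a shared 2.35% with the Ces family and 20.9% with Gm7208, which has no row either. Ces1c shared 13.4% with the family, mainly with Ces1b at 10.7%.

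The other members were nearly distinct at this length. The share of windows found elsewhere in the family was 0.533% for Ces1f, 1.28% for Ces1d, 1.67% for Ces1g, 3.21% for Ces1e and 3.36% for Ces2e. The calls of a fall for Ces1e, Ces1g and Ces2e thus rest on transcripts of which under 4% of windows were shared within the family. How far reads of Gm7208 enter the value of Ces2a was not tested. The sources used here give no read length.

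**Figure D3:**
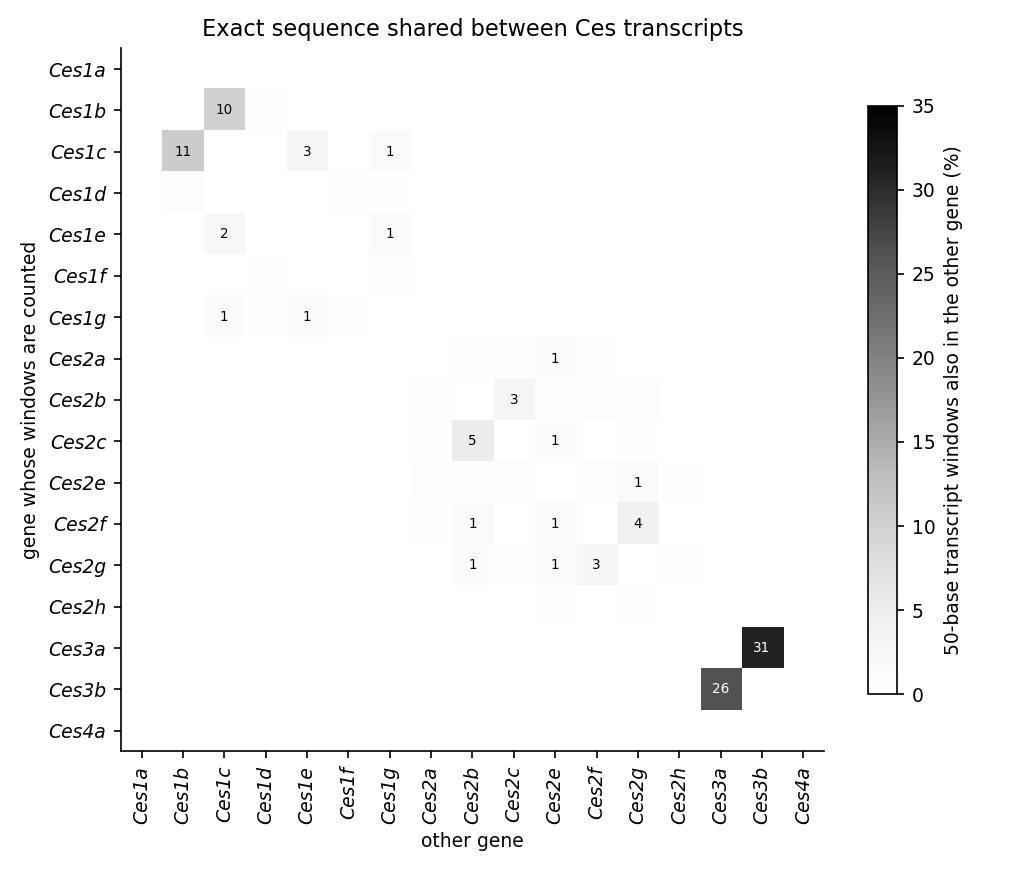
Share of 50-base windows of each gene's longest coding transcript (rows) that also occur exactly in transcripts of another Ces gene (columns), in percent, with values of 1% or more printed rounded. The darkest cells are Ces3a with Ces3b (30.9% and 26.1%), then Ces1b with Ces1c (9.92% and 10.7%), and the pseudogene Ces2d-ps is not drawn.

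Of the other Ces genes, 8 had a row in the authors' deposited table, with 1 higher, 2 lower, 5 not called and a median log2 fold change of -0.38. Ces1b, the nearest relative of Ces1c, rose from 1043 to 2551 by the authors' deposited table (log2 fold change 1.29, SE 0.22, adjusted p = 8.09e-07). The transcripts of Ces1b and Ces1c were 91.1% identical over 1825 aligned bases, and Ces1b shared 9.92% of its 50-base windows with Ces1c but 1.29% at 100 bases. By the authors' deposited table Ces1b amounted to 2.90% of Ces1c in WT and 4.94% in Huwe1_LKO, and it gained 1508 where Ces1c gained 15720. How far reads of Ces1c enter the value of Ces1b was not tested. Their sum, which such an exchange leaves alone, went from 37015 to 54243, a log2 ratio of 0.55.

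Ces2g, at 1007 in WT and 648 in Huwe1_LKO by the authors' deposited table, fell with the Ces2 members (log2 fold change -0.64, SE 0.17, adjusted p = 0.00475). Ces4a also fell, from 16.6 to 6.28 by the authors' deposited table (log2 fold change -1.41, SE 0.45, adjusted p = 0.0236), and shared none of its windows with the family. Ces1a stood at 2.26 and 4.04 (adjusted p = 0.432), Ces2b at 6.22 and 3.14 (adjusted p = 0.318) and Ces2h at 5.36 and 1.91 (adjusted p = 0.0645) by the authors' deposited table, all too low for a firm fold. Ces2f and Ces5a were listed at 0.131 and 0.121 by the authors' deposited table, a pair of values that 86 genes share exactly. Ces1h was not matched. Over all 18 Ces genes, 2 were higher, 8 lower and 8 not called, with a median log2 fold change of -0.68.

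Genes around the clusters were mostly not called, as were most genes anywhere. Over all 16640 genes, 5.56% were called lower and 4.41% higher. Within 300 kb of a member the authors' deposited table held 28 genes outside the family, 21 of them with a mean of 10 or more. None was called lower and 1 was called higher, which was Hsf4, a heat shock transcription factor, at 212 in WT and 318 in Huwe1_LKO by the authors' deposited table (log2 fold change 0.59, adjusted p = 0.000255). Their median log2 fold change was 0.16, with a range from -0.30 to 0.84. Of the 28, 3 lie beside the Ces1 cluster and 25 beside the cluster of Ces2 to Ces4a. Within the Ces1 cluster the order along the chromosome was Ces1a (not called), Ces1b and Ces1c (both higher), then Ces1d, Ces1e, Ces1f and Ces1g, of which Ces1e and Ces1g were lower and the other 2 not called.

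**Figure D4:**
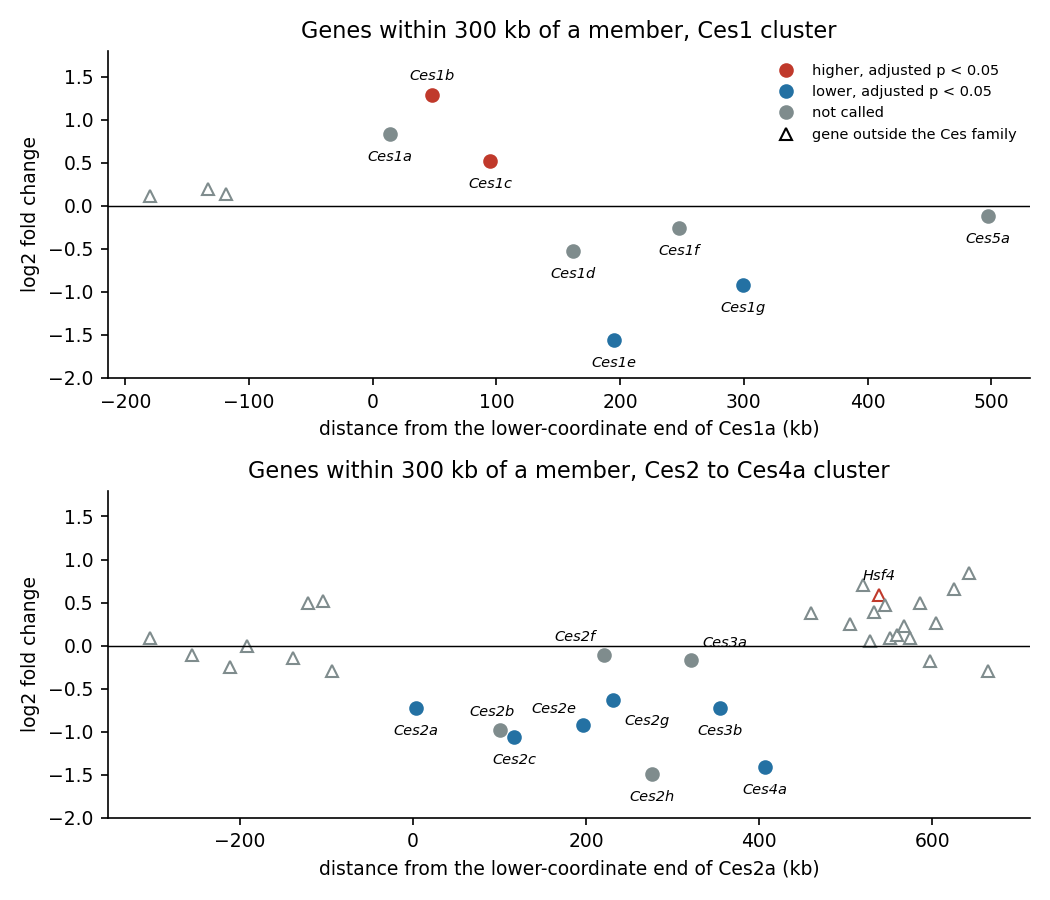
Log2 fold change of Huwe1_LKO over WT from the authors' deposited table against distance along chromosome 8 in kilobases, for Ces genes (circles) and other genes within 300 kb of a member (triangles), with red for higher, blue for lower and grey for not called. In the upper panel Ces1b and Ces1c are red while Ces1e and Ces1g, further along, are blue. In the lower panel the 6 blue points from Ces2a to Ces4a lie between 2 stretches of triangles of which 1, Hsf4, is coloured.

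Other ester and lipid hydrolases of the liver were described beside the members. Of 30 genes, 1 was higher, 5 were lower and 24 were not called. Their median log2 fold change was -0.25, against 0.01 for the 12309 genes with a mean of 10 or more. For the 2196 genes with a mean of at least 1000 it was -0.08. Called lower were 5.56% of all genes and 15.5% of those 2196, and called higher were 4.41% and 6.01%. Mgll, which cuts monoglycerides, fell from 5054 to 2466 by the authors' deposited table (log2 fold change -1.03, adjusted p = 4.03e-06). Lipa, the lysosomal acid lipase, fell from 3804 to 2001 by the authors' deposited table (log2 fold change -0.93, adjusted p = 2.27e-07). Pnpla3, a lipid droplet protein tied to fatty liver, fell from 176 to 39.4 by the authors' deposited table (log2 fold change -2.16, adjusted p = 0.000917). Abhd3 (adjusted p = 0.000457) and Pnpla7 (adjusted p = 0.0026), both of which act on phospholipids, were the other 2 lower, at log2 fold changes of -0.68 and -0.41 by the authors' deposited table. Notum, a secreted carboxylesterase that inactivates Wnt proteins, rose from 487 to 778 by the authors' deposited table (log2 fold change 0.68, adjusted p = 0.0021).

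Aadac and Pnpla2, the best known of this list, were not called. Aadac, an esterase of the endoplasmic reticulum membrane, stood at 6717 in WT and 5728 in Huwe1_LKO (log2 fold change -0.23, adjusted p = 0.473) by the authors' deposited table. Pnpla2, the cytosolic adipose triglyceride lipase, stood at 1776 and 2002 (log2 fold change 0.17, adjusted p = 0.546) by the authors' deposited table. By the deposited annotation, 35 genes carry carboxylic ester hydrolase activity, and 12 of them are Ces genes. The 23 outside the family held 1 higher gene, Nlgn2, and 2 lower genes, Baat and Lyplal1, with a median log2 fold change of -0.28. Baat, which conjugates bile acids to amino acids, went from 4371 to 3174 by the authors' deposited table (adjusted p = 0.0367). The Ces genes under the same term held 2 higher and 5 lower.

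Fatty acids that Ces1d frees from stored triglyceride feed the lipid that is loaded onto apolipoprotein B, and 16 genes of VLDL assembly and secretion were listed for that step. Of these, 1 was called, Mttp, the lipid transfer protein of the pathway, which fell from 4757 to 3007 by the authors' deposited table (log2 fold change -0.66, SE 0.20, adjusted p = 0.0159). Apob stood at 53219 and 52168 by the authors' deposited table (adjusted p = 0.955), and the median of the 16 was -0.10. The 12 listed proteins of the endoplasmic reticulum lumen and its retrieval receptors, with which most Ces proteins reside, had none called at the authors' adjusted p, which came from DESeq2. Of these 12, 1 had an unadjusted p under 0.05, and their median log2 fold change was -0.12. Over all genes, 5.56% were called lower and 4.41% higher. Among the 2196 genes with a mean of at least 1000, the level of most genes in both lists, the shares were 15.5% and 6.01%. Whether lists of 12 and 16 genes held fewer calls than these shares was not tested.

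Among 22 transcription factors known to act on Ces genes or on liver genes of the same kind, 1 was higher and 3 were lower, with a median log2 fold change of -0.05. The shares over all genes were 4.41% higher and 5.56% lower. Hnf4a, a main activator of hepatocyte genes, rose from 8990 to 11654 by the authors' deposited table (log2 fold change 0.37, adjusted p = 0.0318). Pparg, a fat-storage regulator, fell from 515 to 121 by the authors' deposited table (log2 fold change -2.09, adjusted p = 1.82e-20). Srebf1, which drives fatty acid synthesis genes, fell from 10645 to 5781 by the authors' deposited table (log2 fold change -0.88, adjusted p = 0.00237), and Nr1h3, the oxysterol receptor LXRα, fell from 1657 to 1314 in that table (log2 fold change -0.34, adjusted p = 0.00863).

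The drug-sensing receptors that induce several Ces2 genes were not called. Nr1i3, which encodes CAR, stood at 2061 in WT and 1225 in Huwe1_LKO by the authors' deposited table, with a wide error (log2 fold change -0.75, SE 0.32, adjusted p = 0.127). Nr1i2, which encodes PXR, was at 1228 and 1053 by the authors' deposited table (adjusted p = 0.561). Nr1h4, the bile acid receptor FXR, was at 3100 and 3932 (adjusted p = 0.166) and Ppara at 5555 and 4639 (adjusted p = 0.389) by the authors' deposited table.

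Of 27 listed targets of CAR and PXR, 4 were higher and 2 lower, with a median log2 fold change of -0.01, beside 4.41% higher and 5.56% lower over all genes. Log2 fold changes were above 0 in 13 and below 0 in 14. By the authors' DESeq2 run, 14 of the 27 had an unadjusted p under 0.05, so the median does not mean a list without changes. Cyp2a5, Por, Gsta2 and Cyp3a13 rose, with log2 fold changes of 0.89, 0.52, 0.90 and 0.74 by the authors' deposited table. Aldh1a1 and Cyp2c29 fell by 0.85 and 1.12 on the log2 scale by the authors' deposited table. Cyp2b10, the best known CAR target, stood at 150.4 and 71.6 (log2 fold change -1.07, SE 0.52, adjusted p = 0.21) by the authors' deposited table. Cyp3a11, the best known PXR target, stood at 63365 and 64232 (adjusted p = 0.975) by the authors' deposited table. The plot of related lists sets these groups beside the members.

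**Figure D5:**
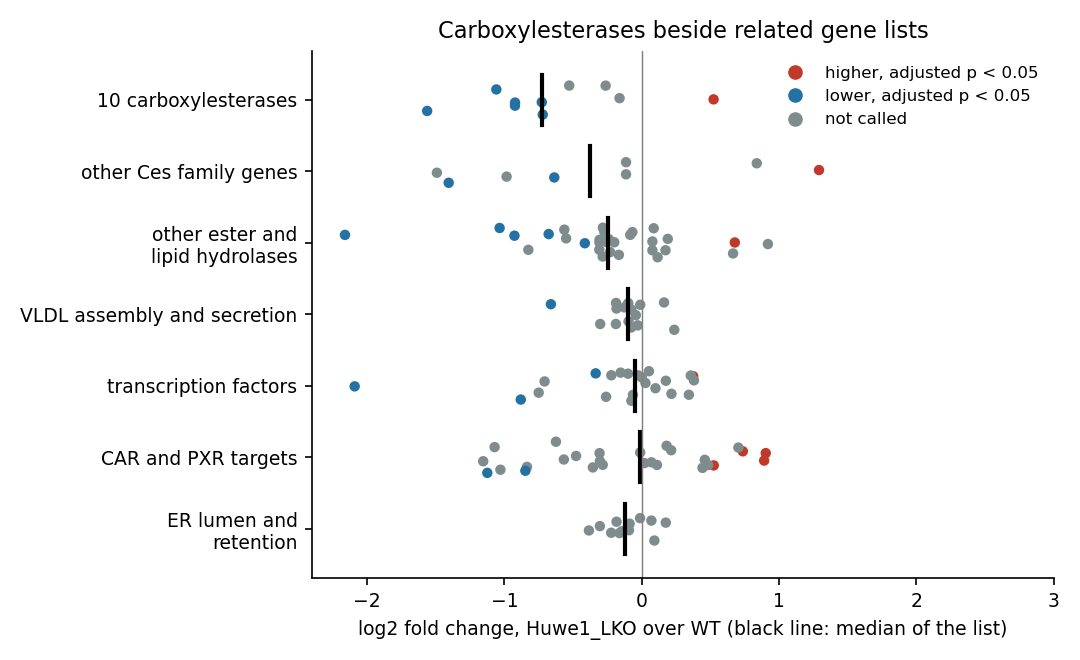
Log2 fold changes of Huwe1_LKO over WT from the authors' deposited table for the members and 6 lists of related genes, 1 point per gene, spread vertically only for legibility, with the median of each list as a black line. The median of the 10 carboxylesterases is at -0.72, that of the other ester and lipid hydrolases at -0.25, and those of the remaining lists outside the family between -0.12 and -0.01.

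Hepatocyte genes marked the tissue: all 8 listed markers were present, from 18547 upward by the authors' deposited table, and 2 of them, Apoa1 and Serpina1c, were higher in Huwe1_LKO, with a median log2 fold change of 0.32 over the 8. Of these markers, 7 had a log2 fold change above 0 and 1, Tat, was below 0 at -0.48 without a call (adjusted p = 0.286). The part of hepatocyte content in the carboxylesterase values was not tested. Summed markers of other cells went from 2375 to 2829 for 8 Kupffer cell and macrophage genes, from 4445 to 4992 for 7 stellate cell genes, from 1689 to 1763 for 6 endothelial genes, from 900.4 to 1620 for 5 cholangiocyte genes and from 97.4 to 110.6 for 5 T, NK and B cell genes by the authors' deposited table. None of these 31 genes was called by the authors' DESeq2 run, and 1, the cholangiocyte gene Spp1, had an unadjusted p under 0.05. Spp1 carries the difference in the cholangiocyte sum, at 722 in WT and 1410 in Huwe1_LKO by the authors' deposited table (adjusted p = 0.174), while Krt7 stood at 13.9 and 9.40. Of 4 neutrophil genes, summing to 46.8 and 123 by the authors' deposited table, S100a9 and Retnlg were higher and S100a8 and Ly6g were not called. S100a8 and S100a9 hold most of that sum, and Ly6g went the other way, at 7.52 in WT and 5.02 in Huwe1_LKO by the authors' deposited table (log2 fold change -0.58, adjusted p = 0.628). Beside these counts, 5.56% of all genes were called lower and 4.41% higher. Among the 2196 genes with a mean of at least 1000 the shares were 15.5% and 6.01%. The lack of a call does not show that a cell type was unchanged. The part of these other cells in the carboxylesterase values was not tested.

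Some Ces genes are also active in fat, gut and kidney, so markers of those tissues were read as well. The 4 adipocyte genes found summed to 139 in WT and 59.6 in Huwe1_LKO by the authors' deposited table, nearly all of it Cfd, with a median log2 fold change of -0.76. None of the 4 was called by the authors' DESeq2 run, and 2 had an unadjusted p under 0.05: Cfd, at 135.1 and 57.8 (log2 fold change -1.23, adjusted p = 0.171), and Retn, at 3.30 and 1.23 (log2 fold change -1.42, adjusted p = 0.0757). Lep was at 0.273 and 0.222 by the authors' deposited table. Adipoq, the defining adipocyte gene, was at 0.368 and 0.394 and the kidney gene Slc22a12 at 0.223 and 0.255 by the authors' deposited table, near the lowest value of the table, 0.115. Of the gut genes, Vil1 rose from 3.69 to 49.6 and Fabp2 fell from 1459 to 494 by the authors' deposited table. Lgals4, at 178.6 and 309.5 by that table, was not called (adjusted p = 0.0624), and Cdx2 was not matched. Position in the lobule was read from 8 periportal genes, of which 1 was higher (Cyp2f2), and 8 pericentral genes, of which 1 was higher (Slc1a2) and 2 were lower (Oat and Rgn). Their medians were -0.13 and 0.03, and their part in the members' values was not tested. For the counts of this paragraph, the shares over all genes were 5.56% lower and 4.41% higher. They were 15.5% and 6.01% among the 2196 genes with a mean of at least 1000.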

How the data were processed

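The submitters' processing notes name DESeq2 and the build mm10 without versions. For aligner, counter and filters nothing is given in the sources used here. For the comparison, 1 table was deposited by the authors. Per the file headers, 2 of its columns hold expression, a signal already normalized for depth, with 1 value for each group of 4 livers. Per the same headers, a log2 column gives KO over WT. The deposited log2 matches the log2 ratio of both deposited expression values within 4.71e-08. The remaining columns hold the authors' p-value and adjusted p-value. Adjusting the p-values of all 16640 genes by Benjamini-Hochberg returned the deposited ones within 1.74e-06. The deposited gene length was used as a number of bases.

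A count model or limma on values per liver, as planned, could not be fitted to 1 value per gene and group, so each call is taken from the authors' adjusted p, under 0.05. Implied standard errors are the fold change divided by the normal score of the p, which assumes a Wald test that the notes do not state. They did not exceed 0.57 in any gene and no gene is listed at 0, so the folds of genes with few reads may be understated. The members, the gene lists and the named genes (all Ces genes, called genes of each list, up to 6, and its best known gene, and called neighbours) were chosen with earlier results of these data known. Gusb, Tat, Adipoq, Slc22a12 and the term genes Baat, Lyplal1 and Nlgn2 were named after their values were seen. Groups follow the genotype in the labels.

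Coordinates, synonyms and upstream sequences are from RefSeq (GRCm38), transcripts and exon counts from GENCODE M21. Sharing was counted as exact matches of windows of 50 and 100 bases on the same strand. Calculations used Python 3.11.15 with numpy 2.4.6, pandas 2.3.3, scipy 1.17.1, biopython 1.88 and matplotlib 3.10.9, and were tested on simulated data.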

Additional observations from a re-analysis of the deposited data

How the results depend on the processing

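No paired analysis was possible because the table holds 1 value per gene and group, and leaving out each liver was not run for the same reason. With a Bonferroni correction over all genes, 2 members (Ces1e and Ces2e) in place of 6 were called lower and 0 in place of 1 higher. With a minimum change of 1.5-fold, 0 were called higher, since Ces1c rose by less. Without Ces1c, the log2 ratio of the Ces1 sum turned from 0.13 to -0.64 and that of the 10 members moved from -0.07 to -0.43. Without Ces3a, that of the Ces3 members moved from -0.24 to -0.72. These follow from what each setting leaves out. Ces3b was not called at an adjusted p threshold of 0.01, nor after centring on the most abundant eighth of genes (-0.64) or removal of the length and level trend (-0.60), and the cause was not tested. The count of lower members was otherwise 5 or 6, and the median log2 fold change of all 10 members ran from -0.73 to -0.60. Precision is limited by 4 livers per group, and depth per liver was not analysed here.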
